A study of Mus musculus with 6 samples.

Results

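The neurotrophins and their receptors were followed in 8 genes, taken by gene symbol from the deposited tables of 54040 genes. They were the ligands Bdnf and Ntf3, the receptor tyrosine kinases Ntrk2 (TrkB) and Ntrk3 (TrkC), the low-affinity receptor Ngfr (p75NTR), the Vps10p-domain receptors Sort1 (sortilin) and Sorcs2, and the membrane scaffold Kidins220. All 8 were found, and 7 had enough counts to be among the 16928 genes tested. The data were bulk RNA-seq libraries of total RNA from the dentate gyrus of C57BL/6 mice at postnatal day 40. One group of 3 libraries, cKO, came from tissue deficient in the m6A reader YTHDF2, which the series' title places in granule cells, and the other group of 3 libraries, Ctrl, from negative control tissue. No source used here gives the allele, the Cre driver or any pooling of animals, and the labels name no cell sorting. Nothing in the labels says that replicates came from separate animals, and p-values then measure the spread among 6 libraries, which may be technical.

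Neurotrophins are secreted as precursors that are cleaved to mature dimers. Mature BDNF signals mainly through TrkB and mature NT-3 mainly through TrkC, which recruit the Ras-ERK, PI3K-Akt and phospholipase C gamma pathways, whereas uncleaved precursors bind p75NTR together with sortilin family receptors. In the dentate gyrus, granule cells make BDNF in an activity-dependent way and carry it in their mossy fibre axons.

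Library totals ran from 16794642 to 19190101 counts, and 1 count stood for 0.0518 to 0.0596 CPM (counts relative to library size after TMM scaling). Groups were compared by the quasi-likelihood test of edgeR, and genes whose Benjamini-Hochberg adjusted p, taken over all 16928 genes, was under 0.05 were called changed. Over all tested genes 520 rose and 148 fell, a split of 297 against 154 after a correction for GC content and gene length, and the median log2 fold change was 0.00. Ythdf2 itself stood at 56.7, 56.4 and 54.4 CPM in cKO replicates 1 to 3, against 37.8, 68.5 and 68.3 CPM in Ctrl replicates 1 to 3. The library labelled Ctrl replicate 1 was thus below every cKO library, and Ythdf2 had a log2 fold change of -0.06 (adjusted p = 0.882). Without the library labelled Ctrl replicate 1 it was -0.30 (adjusted p = 0.00862), without Ctrl replicate 2 it was 0.06 and without Ctrl replicate 3 it was 0.07. The table gives 1 count per gene, which does not separate intact from shortened transcripts. Markers of granule cells were expressed (a summed 449 to 466 FPKM over 10 genes in cKO and 449 to 504 in Ctrl), as were those of all other cell types examined, with choroid plexus lowest (2.88 to 4.88 FPKM in cKO and 2.70 to 4.91 in Ctrl). Of 10 granule cell markers 1 rose and 1 fell, while 1 of 5 mossy cell and 1 of 8 tested pyramidal cell markers rose. Outside these lists and those of astrocytes and microglia no marker was called. Of 8 astrocyte markers 3 fell and of 8 microglial markers 5 fell, where 0.874% of all tested genes fell, and no member of either list rose. Their summed levels did not overlap between the groups, with 682 to 691 FPKM in cKO against 758 to 766 in Ctrl for astrocytes and 163 to 174 FPKM in cKO against 193 to 209 in Ctrl for microglia. The 8 markers of immature neurons and progenitors also did not overlap in sum (50.8 to 52.8 FPKM in cKO against 54.7 to 58.2 in Ctrl), although none of them passed the test alone. The summed levels of all other marker lists overlapped between the groups. Taken singly, 22.9% of all tested genes had CPM ranges that did not overlap. In bulk tissue fewer cells of a type and less RNA per cell cannot be told apart.

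Among the 7 tested genes Sorcs2 rose and the other 6 did not pass the test, where 3.95% of all tested genes changed, 3.07% rose and 0.874% fell. With an unadjusted p under 0.05, 2 of the 7 passed (Sorcs2 and Ntrk3), against 17.6% of all tested genes. The CPM ranges of the groups did not overlap for 4 of the 7 (Sorcs2, Ntrk3, Ntrk2 and Kidins220), against 22.9% of all tested genes. For Kidins220 this depended on the scaling, since its ranges overlapped in deposited FPKM. Differences were small, from -0.09 for Bdnf to 0.25 for Sorcs2 on the log2 scale.

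**Figure D1:**
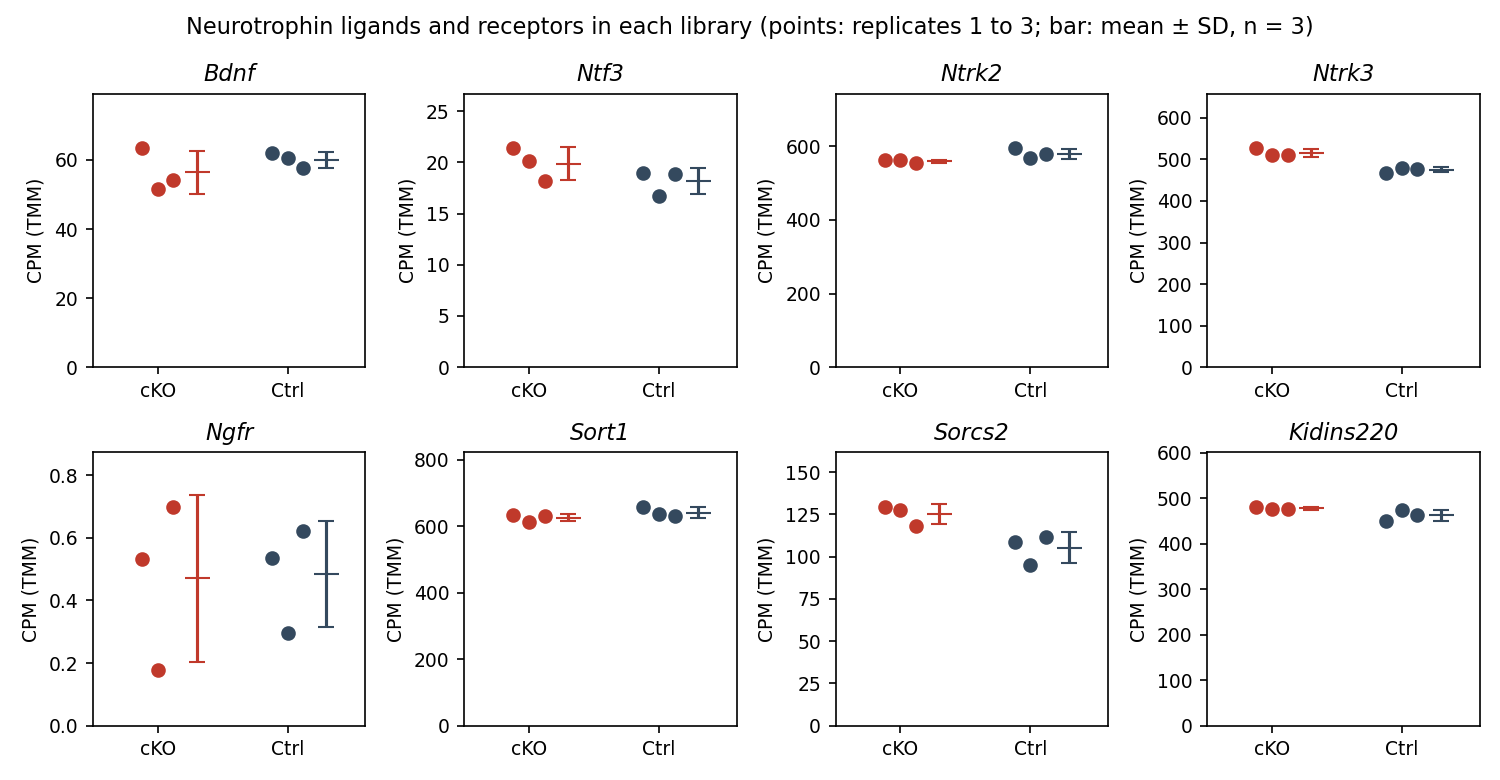
TMM-normalised CPM of the 8 genes in each library, with cKO on the left and Ctrl on the right of each panel and the mean ± SD of 3 libraries beside the points. The cKO points of Sorcs2 (118 to 129.5 CPM) and Ntrk3 (510.3 to 527 CPM) lie above all Ctrl points, and each vertical axis starts at 0.

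Neither ligand passed the test. Bdnf (ENSMUSG00000048482, plus strand, chr2:109674700-109727007 on GRCm38, the build of the deposited coordinates) encodes brain-derived neurotrophic factor. Its level was 63.4, 51.7 and 54.1 CPM in the cKO libraries and 62.0, 60.5 and 57.5 CPM in the Ctrl libraries. The highest and the lowest of these values were both in cKO libraries, so the cKO range enclosed the Ctrl range. The means were 56.4 ± 6.20 CPM in cKO and 60.0 ± 2.28 CPM in Ctrl (SD, n = 3 each), a log2 fold change of -0.09 ± 0.07 (SE) with a 95% confidence interval of -0.24 to 0.06 and an adjusted p of 0.566. Without cKO replicate 1 the log2 fold change of Bdnf was -0.18 (adjusted p = 0.173), and without cKO replicate 2 it was -0.03 (adjusted p = 0.896).

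Ntf3 (ENSMUSG00000049107, minus strand, chr6:126101412-126166910) encodes neurotrophin-3. Its level was 21.4, 20.1 and 18.2 CPM in the cKO libraries and 18.9, 16.7 and 18.9 CPM in the Ctrl libraries. The lowest cKO library was below both the first and the third Ctrl library, so the groups overlapped. The means were 19.9 ± 1.62 CPM in cKO and 18.2 ± 1.29 CPM in Ctrl (SD, n = 3 each), a log2 fold change of 0.13 ± 0.09 (SE; 95% interval -0.06 to 0.32) with an adjusted p of 0.503. Ntf3 rested on 282 to 365 counts per library and Bdnf on 866 to 1111, against 7557 to 12155 for Ntrk2, Ntrk3, Sort1 and Kidins220.

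The ligands are related in sequence, which is shown here because related genes can share reads. These are stretches of 240 coding bases that contain the longest exact match, which lie in the part that encodes the mature factors (coding bases 535 to 774 of each; chr2:109723913-109724152, plus strand, and chr6:126101729-126101968, minus strand, GRCm38, from GENCODE M21 transcripts Bdnf-201 and Ntf3-201). Capitals mark bases that are the same in both when the stretches are compared without gaps.
Bdnf: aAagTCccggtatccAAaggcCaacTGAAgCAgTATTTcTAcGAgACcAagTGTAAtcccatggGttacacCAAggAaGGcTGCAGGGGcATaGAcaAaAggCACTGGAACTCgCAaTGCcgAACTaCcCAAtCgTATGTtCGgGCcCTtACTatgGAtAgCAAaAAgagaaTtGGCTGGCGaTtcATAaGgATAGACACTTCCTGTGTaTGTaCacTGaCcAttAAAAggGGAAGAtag
Ntf3: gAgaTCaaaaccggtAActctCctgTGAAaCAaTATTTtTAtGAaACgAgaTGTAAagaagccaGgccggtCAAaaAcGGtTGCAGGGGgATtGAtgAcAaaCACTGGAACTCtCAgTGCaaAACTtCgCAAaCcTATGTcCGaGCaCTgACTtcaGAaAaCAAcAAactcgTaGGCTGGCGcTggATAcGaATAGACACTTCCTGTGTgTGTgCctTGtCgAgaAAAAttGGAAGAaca
Of the 240 bases 146 were the same (60.8%), and the longest exact match between the whole coding sequences was 17 bases. No source used here gives the read length.

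The Trk receptors had log2 fold changes of opposite sign, and neither passed the test. Ntrk2 (ENSMUSG00000055254, plus strand, chr13:58806569-59133970) encodes TrkB, the receptor for BDNF, which neurons make with its kinase and astrocytes make mostly in a truncated form. Its level was 563, 562 and 554 CPM in the cKO libraries, against 595, 567 and 578 CPM in the Ctrl libraries. All cKO libraries were below all Ctrl libraries, by a margin narrower than the spread within Ctrl. The log2 fold change was -0.05 ± 0.04 (SE; 95% interval -0.13 to 0.03) with an adjusted p of 0.502. Astrocyte marker levels, which also did not overlap between the groups, had a median log2 fold change of -0.17 over 8 genes, and their part in the Ntrk2 values was not tested.

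Ntrk3 (ENSMUSG00000059146, minus strand, chr7:78175959-78738012) encodes TrkC, the receptor for NT-3. Its level was 527, 510.3 and 510.5 CPM in the cKO libraries, against 469, 480.3 and 477 CPM in the Ctrl libraries. Every cKO library was higher than every Ctrl library. The means were 516 ± 9.57 CPM in cKO and 475 ± 6.06 CPM in Ctrl (SD, n = 3 each), a log2 fold change of 0.12 ± 0.04 (SE; 95% interval 0.04 to 0.20). The unadjusted p was 0.00541 and the adjusted p of 0.0865 missed the threshold. DESeq2 called Ntrk3 with an adjusted p of 0.0435, where that tool called 4.74% of all tested genes, and the log2 fold change lay between 0.10 and 0.13 under all 16 alternatives. The antisense transcript Gm9885, within the span of Ntrk3, had 135 to 141 counts in cKO libraries and 98 to 125 in Ctrl libraries, with an adjusted p of 0.262. No source used here says whether the counting used strand, so reads of the pair cannot be told apart, but Ntrk3 itself had at least 7869 counts in each library. Among other annotated genes that overlap the 8, Gm43099 within Sort1 had 8 to 11 counts in cKO libraries and 5 to 16 in Ctrl libraries, and each of the rest had at most 7 counts in any library.

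The Trk receptors are closely related in their kinase domains, shown by the 240 coding bases that contain their longest exact match (Ntrk2-201, coding bases 1717 to 1956, chr13:59054296-59060297; Ntrk3-201, coding bases 1720 to 1959, chr7:78247329-78250870; each spans 2 exons and the genome interval includes the intron between them). Capitals again mark bases that are the same in both, compared without gaps.
Ntrk2: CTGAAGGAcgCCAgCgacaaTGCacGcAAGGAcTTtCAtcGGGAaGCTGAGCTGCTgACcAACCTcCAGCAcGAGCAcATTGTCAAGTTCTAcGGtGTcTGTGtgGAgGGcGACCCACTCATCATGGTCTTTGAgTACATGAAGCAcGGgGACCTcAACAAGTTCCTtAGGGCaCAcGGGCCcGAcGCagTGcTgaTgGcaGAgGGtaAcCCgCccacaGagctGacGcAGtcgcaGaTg
Ntrk3: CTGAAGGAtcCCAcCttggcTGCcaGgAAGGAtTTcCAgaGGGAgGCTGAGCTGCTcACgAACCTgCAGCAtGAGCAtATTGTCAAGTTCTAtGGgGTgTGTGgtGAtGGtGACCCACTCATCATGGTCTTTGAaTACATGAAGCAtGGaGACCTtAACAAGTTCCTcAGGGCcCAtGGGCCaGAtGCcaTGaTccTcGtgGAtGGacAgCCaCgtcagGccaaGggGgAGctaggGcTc
Here 171 of the 240 bases were the same (71.2%), and the longest exact match between the coding sequences was 23 bases. GENCODE M21 lists 10 transcripts for Ntrk2, with complete coding sequences of 1401 to 2466 bases, and 20 for Ntrk3, with 1839 to 2595 bases. The shorter coding sequences include receptors without a kinase domain, and the deposited values are 1 per gene, so the forms with and without kinase were not separated here.

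**Figure D2:**
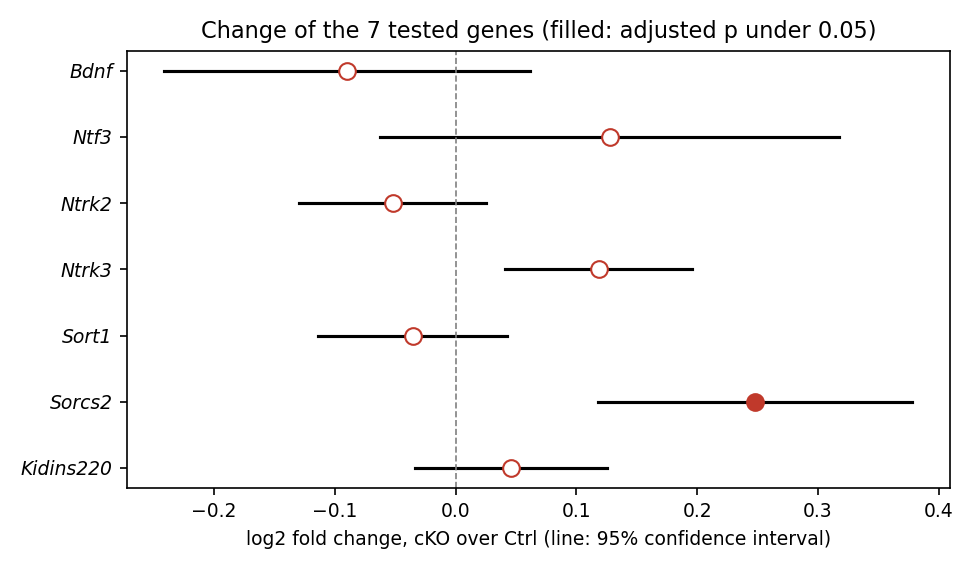
Log2 fold change of the 7 tested genes, cKO over Ctrl, with 95% confidence intervals from edgeR as lines and filled points for an adjusted p under 0.05. Sorcs2 (0.25) is the filled point, the interval of Ntrk3 (0.04 to 0.20) also lies above 0, and the other 5 intervals include 0.

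Ngfr (ENSMUSG00000000120, minus strand, chr11:95568818-95587735), which encodes p75NTR, was close to the limit of detection. It had 9, 3 and 13 counts in the cKO libraries and 9, 5 and 12 counts in the Ctrl libraries, or 0.179 to 0.699 CPM in cKO and 0.296 to 0.622 CPM in Ctrl. In 1 cKO library its count equalled 3, the number that a count of 0 still allows. It did not pass the filter on low counts and was not tested. The ratio of summed counts, 25 in cKO to 26 in Ctrl and scaled by library totals, was 0.974 with an exact 95% interval of 0.539 to 1.75 that covers counting error only. A change within that interval could not be told from none on counting error alone. The interval leaves out the spread among libraries, so larger changes could also have been missed.

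Sort1 (ENSMUSG00000068747, plus strand, chr3:108284082-108361511) encodes sortilin, which binds precursor neurotrophins beside p75NTR and also sorts BDNF inside neurons. Its level was 633, 614 and 629.6 CPM in the cKO libraries and 659, 636 and 629.6 CPM in the Ctrl libraries. The ranges met in the middle, and the log2 fold change of -0.04 ± 0.04 (SE; 95% interval -0.11 to 0.04) had an adjusted p of 0.672.

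Sorcs2 (ENSMUSG00000029093, minus strand, chr5:36017180-36398139), a sortilin relative that binds p75NTR and TrkB, was the gene that rose. Its level was 129.5, 127 and 118 CPM in the cKO libraries, against 109, 94.8 and 112 CPM in the Ctrl libraries. All cKO libraries were above all Ctrl libraries, with the lowest cKO library close to the highest Ctrl library. The means were 125 ± 5.94 CPM in cKO and 105 ± 9.11 CPM in Ctrl (SD, n = 3 each), a log2 fold change of 0.25 ± 0.06 (SE; 95% interval 0.12 to 0.38), or 1.19-fold, with an adjusted p of 0.0352. Permuting the libraries' CPM values gave an exact two-sided p of 0.1, and 3 libraries against 3 allow none smaller.

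Sorcs2 did not pass in several fits with 1 library fewer, in most of which the log2 fold change was close to the reported 0.25. It was 0.22 (adjusted p = 0.124) without cKO replicate 1, 0.23 (adjusted p = 0.104) without cKO replicate 2 and 0.29 (adjusted p = 0.0597) without cKO replicate 3. Without Ctrl replicate 2 it was 0.18 (adjusted p = 0.126). Sorcs2 still passed without the library labelled Ctrl replicate 1 (0.27, adjusted p = 0.0377) and without Ctrl replicate 3 (0.29, adjusted p = 0.0269). After the correction of each library for GC content and gene length the log2 fold change of Sorcs2 was 0.15 with an adjusted p of 0.229. The longest Sorcs2 transcript has a GC content of 57.0%, above that of 87.3% of the tested genes with a GENCODE transcript, whose median was 49.4%. Genes that rose had a median of 55.6%. The correction took GC content and length together, and the part of either in the result was not tested. Ntrk3, at 43.6% GC, had a log2 fold change of 0.10 after the same correction, with an adjusted p of 0.176.

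**Figure D3:**
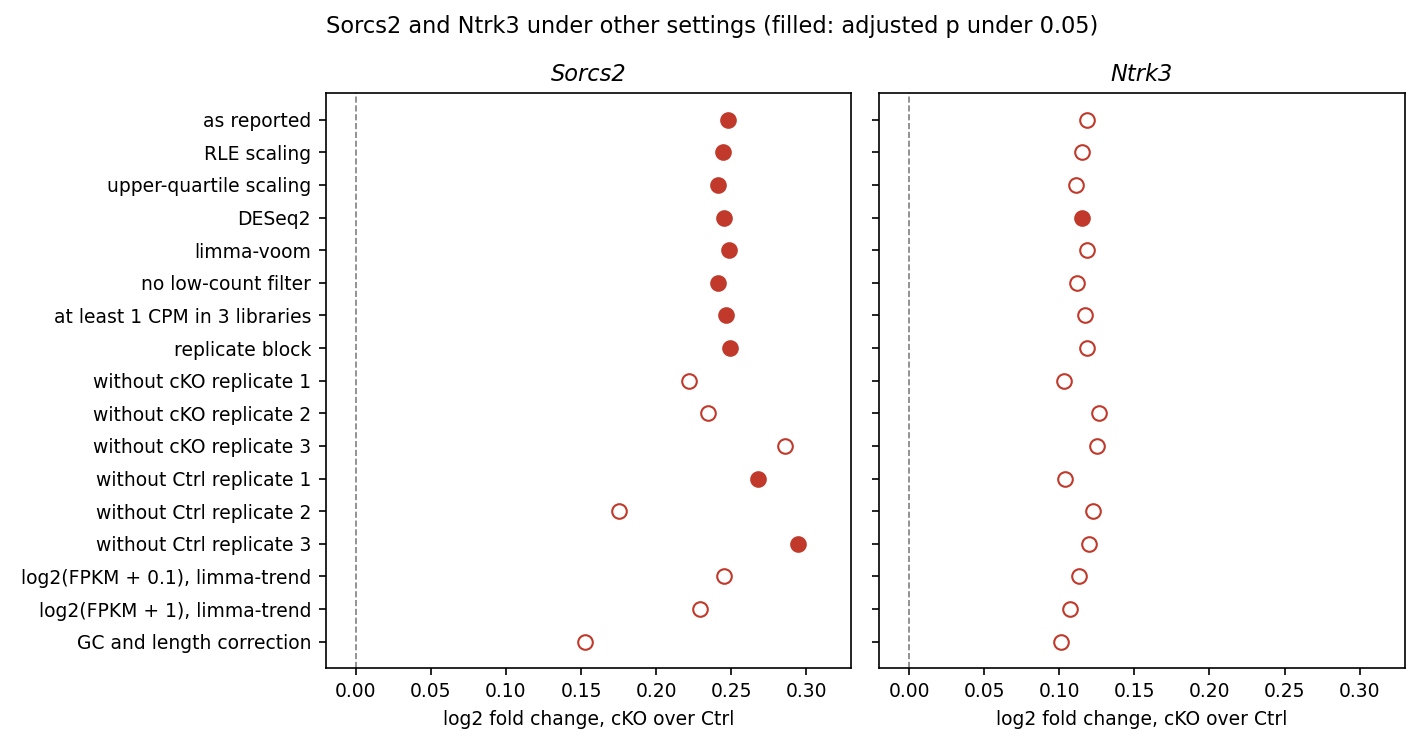
Log2 fold change of Sorcs2 and Ntrk3, cKO over Ctrl, as reported and under 16 alternative settings, with filled points for an adjusted p under 0.05. Every point lies above 0, Sorcs2 is filled in the reported fit and 9 of the alternatives, and Ntrk3 is filled in the DESeq2 fit.

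Sort1 and Sorcs2 had a shorter exact match than the Trk receptors. The longest between the coding sequences of 1 transcript of each was 16 bases (Sort1-201 coding bases 2008 to 2023 and Sorcs2-201 coding bases 2113 to 2128), given here to show how little exact sequence these coding regions share. Untranslated regions and other transcripts were not compared.
Sort1 and Sorcs2: GACTTCCTCTGTGACT
In the 240 bases around it, compared without gaps, 88 were the same (36.7%). An insertion or deletion within the stretch can lower this share.

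Kidins220 (ENSMUSG00000036333, plus strand, chr12:24974925-25063152) encodes a membrane scaffold that is phosphorylated by Trk receptors and sustains their ERK signalling. Its level was 481, 476 and 476 CPM in the cKO libraries, against 449.9, 474 and 464 CPM in the Ctrl libraries. The groups did not overlap in CPM, but the lowest cKO library and the highest Ctrl library differed by less than the spread within Ctrl. In deposited FPKM they did overlap, with Ctrl replicate 2 at 54.648 and cKO replicates 2 and 3 at 54.597 and 54.595. The log2 fold change was 0.05 ± 0.04 (SE; 95% interval -0.03 to 0.13) with an adjusted p of 0.576.

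Levels between genes were compared per length. In deposited FPKM (counts scaled by gene length and by library depth) Sort1 was highest, with 82.2 ± 1.38 in cKO and 84.6 ± 1.79 in Ctrl (SD, n = 3 each here and below). Kidins220 followed with 54.8 ± 0.385 FPKM in cKO and 53.3 ± 1.52 in Ctrl, then Ntrk2 with 28.9 ± 0.246 in cKO and 30.0 ± 0.663 in Ctrl. These genes did not overlap with their neighbours over the 6 libraries. Ntrk3 had 17.0 ± 0.324 FPKM in cKO and 15.7 ± 0.238 in Ctrl, and Sorcs2 had 14.1 ± 0.674 in cKO and 11.9 ± 1.04 in Ctrl. Sorcs2 overlapped with Ntf3 (11.5 ± 0.943 FPKM in cKO and 10.6 ± 0.749 in Ctrl), and Ntf3 with Bdnf (9.02 ± 0.997 FPKM in cKO and 9.63 ± 0.339 in Ctrl), over the ranges of all 6 libraries. Within each of the 6 libraries Sorcs2 was above Ntf3 and Ntf3 above Bdnf, although in Ctrl replicate 2 Ntf3 and Bdnf were nearly level (9.72 and 9.71 FPKM). Ngfr was lowest, with 0.136 ± 0.0767 FPKM in cKO and 0.140 ± 0.0490 in Ctrl.

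This order depended on the gene length. The deposited lengths are 30170 bases for Ntrk3 and 19292 for Ntrk2, against 19703 and 8744 bases for their longest GENCODE transcripts and medians of 2726 and 3049 bases over their coding transcripts. Rescaled to the longest transcript, Ntrk2 stood at 63.7 ± 0.544 in cKO and 66.2 ± 1.46 in Ctrl and overlapped with Kidins220 (64.1 ± 0.451 in cKO and 62.3 ± 1.78 in Ctrl). Rescaled to the median coding transcript, Ntrk2 (183 ± 1.56 in cKO and 189.9 ± 4.20 in Ctrl) and Ntrk3 (188 ± 3.59 in cKO and 174 ± 2.64 in Ctrl) both stood above Sort1 (91.3 ± 1.53 in cKO and 93.9 ± 1.99 in Ctrl). Sorcs2, the ligands and Ngfr kept ranks 5 to 8 under all 3 lengths, with Bdnf and Ntf3 changing places. These lengths were chosen after the data were seen.

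**Figure D4:**
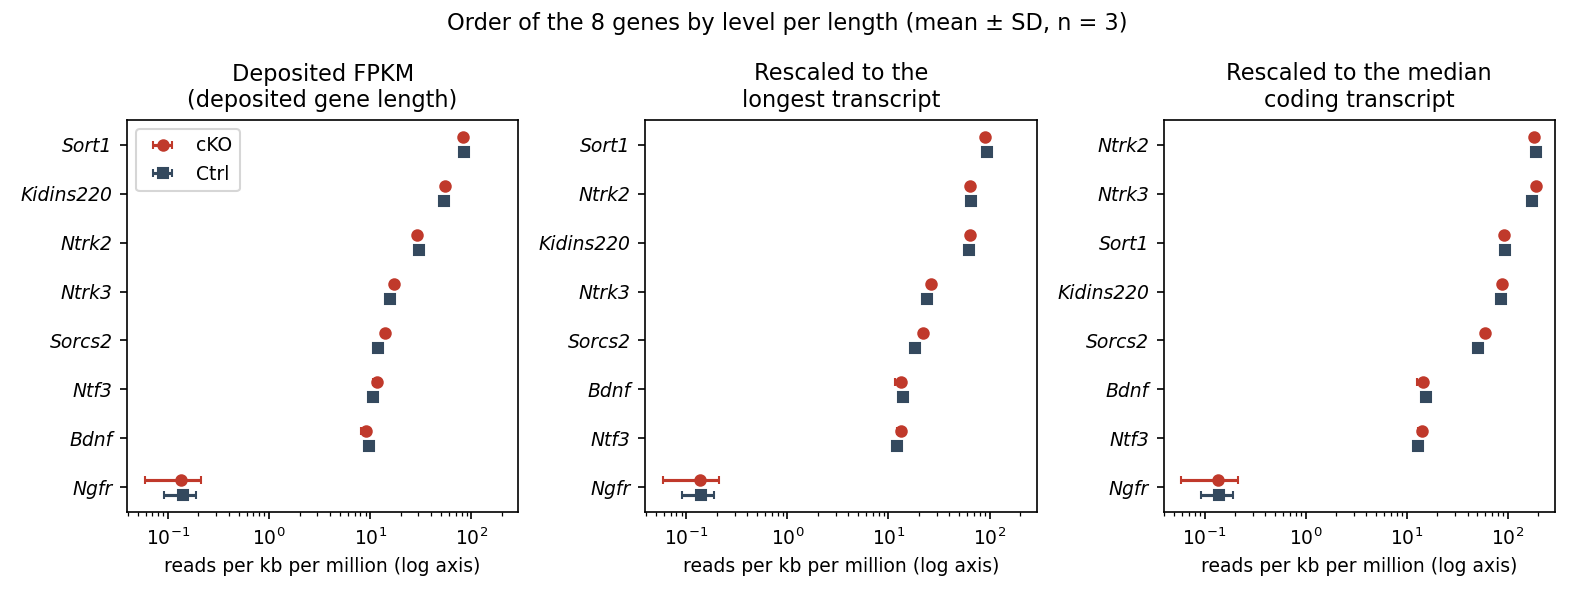
Level per length of the 8 genes in cKO and Ctrl (mean ± SD of 3 libraries, log axis), sorted within each panel, with the deposited FPKM on the left and the same values rescaled to transcript lengths in the other panels. Ntrk2 and Ntrk3 move from ranks 3 and 4 by deposited length to ranks 1 and 2 by median coding transcript, while Ngfr is lowest in each panel.

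Ratios of related genes within a library do not depend on scaling between libraries, and 3 were computed, chosen after the data were seen. Ntrk3 counts were 0.936, 0.908 and 0.921 of Ntrk2 counts in the cKO libraries, against 0.787, 0.847 and 0.825 in the Ctrl libraries. The ratio of Bdnf to Ntf3 counts was 2.96, 2.57 and 2.98 in the cKO libraries, against 3.28, 3.62 and 3.04 in the Ctrl libraries. Sorcs2 counts were 0.204, 0.207 and 0.188 of Sort1 counts in the cKO libraries, against 0.165, 0.149 and 0.178 in the Ctrl libraries. None of the 3 ratios overlapped between the groups, where Ntrk2, Ntrk3 and Sorcs2 taken singly did not overlap either, as 22.9% of all tested genes did not. Ratios of other gene pairs were not computed. The ratio of Ntrk3 to Ntrk2 was 1.13-fold and that of Sorcs2 to Sort1 1.22-fold that in Ctrl, and the ratio of Bdnf to Ntf3 was 0.856-fold. Exact two-sided permutation tests gave p = 0.1 for each, also after Benjamini-Hochberg adjustment over the 3 ratios, and this design allows no smaller p.

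Transcript sequences were also searched for GGACT, a common form of the m6A consensus, on the strand of the transcript. The longest Sort1 transcript held 15 matches in 6836 bases, or 2.19 per kilobase, a higher density than that of 92.1% of the tested genes with a GENCODE transcript. Ntrk3 had 25 matches in 19703 bases (1.27 per kilobase) and Ngfr 4 in 3446 bases (1.16 per kilobase). Sorcs2 (0.876), Bdnf (0.703), Kidins220 (0.675) and Ntrk2 (0.572 per kilobase) were below the median of 1.01 per kilobase, and the 1483 bases of Ntf3 held none, whereas 89.7% of the 16710 transcripts of all lengths had at least 1. A match is a run of letters, and methylation was not measured in these libraries.

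The other genes of neurotrophin signalling were examined in 7 lists of 154 genes, of which 149 were tested. Altogether 8 changed, with 6 that rose and 2 that fell, or 5.37% against 3.95% of all tested genes, and their median log2 fold change was -0.01. Correcting for GC content and length left 3 calls. Leaving out the library labelled Ctrl replicate 1 gave 4, and leaving out cKO replicate 2, cKO replicate 3 or Ctrl replicate 2 gave 1 each. Ntf5, which encodes neurotrophin-4, had at most 0.699 CPM in cKO and 0.417 CPM in Ctrl and was not tested.

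Genes that act directly downstream of Trk receptors held 6 of the 8 changes, out of 42 tested (14.3%, against 3.95% of all tested genes), with a list median of -0.02. Mapk7, which encodes the ERK5 kinase, had 39.6, 46.8 and 41.7 CPM in the cKO libraries, against 31.9, 36.0 and 36.0 CPM in the Ctrl libraries (log2 fold change 0.30, adjusted p = 0.0356). Plcg1, the phospholipase C gamma that binds activated Trk receptors, had 106 ± 6.59 CPM in cKO and 90.7 ± 5.82 CPM in Ctrl (0.23, adjusted p = 0.043). The adaptor gene Shc2 (0.22, adjusted p = 0.0465) and the MEK2 gene Map2k2 (0.20, adjusted p = 0.0484) also rose in the reported fit, but Map2k2 did not pass in 13 of the 16 alternatives, among them limma-voom (adjusted p = 0.0504) and the GC and length correction (0.09, adjusted p = 0.421). Mapk7, Plcg1 and Shc2 each did not pass in 8 of the 16, with log2 fold changes of 0.22 to 0.35 for Mapk7, 0.16 to 0.27 for Plcg1 and 0.17 to 0.26 for Shc2. Each of the 4 was above 0 under all 16. The list's other 2 changed genes fell. DESeq2 called 8 of these 42 genes, against 4.74% of all tested genes. Once GC content and length were corrected 2 of the 42 were called, against 451 of all 16928 genes, and 2 when the library labelled Ctrl replicate 1 was left out, against 497 of all genes. Shc2 and Map2k2 fell outside the rule for named genes and were picked once their values were known.

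In the other lists the share of changed genes was at most 4.76%, near the 3.95% of all tested genes. Ptprs, a receptor tyrosine phosphatase, rose among 21 genes of Trk trafficking and turnover, with 556 ± 13.2 CPM in cKO and 488 ± 21.1 CPM in Ctrl (SD, n = 3 each; log2 fold change 0.19, adjusted p = 0.02), and the list's median was -0.01. Ptprs did not pass once GC content and length were corrected (0.06, adjusted p = 0.432). Crtc2, a CREB coactivator, rose among 24 regulators of Bdnf transcription, with 43.8 ± 3.02 CPM in cKO and 34.9 ± 1.08 CPM in Ctrl (0.33, adjusted p = 0.012), and the list's median was 0.04. By edgeR none of 19 genes that process, sort or release proneurotrophins passed (4 with an unadjusted p under 0.05, 1 called by DESeq2 and 1 by limma-voom, median 0.02). In that list Cpe, which encodes the sorting enzyme carboxypeptidase E, stood at -0.08 and Hap1, a huntingtin partner in BDNF transport, at 0.21 (adjusted p = 0.0518). None of 19 partners and proteases of p75NTR passed edgeR's test (3 with an unadjusted p under 0.05, 0 called by DESeq2 and 0 by limma-voom, median -0.02), with values of 0.02 for the adaptor gene Maged1 and -0.12 for Bex3. None of 23 genes induced by BDNF or by activity passed edgeR's test (4 with an unadjusted p under 0.05, 0 called by DESeq2 and 0 by limma-voom, median -0.02), with values of 0.09 for Npy and 0.10 for Vgf, whose products are secreted peptides.

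**Figure D5:**
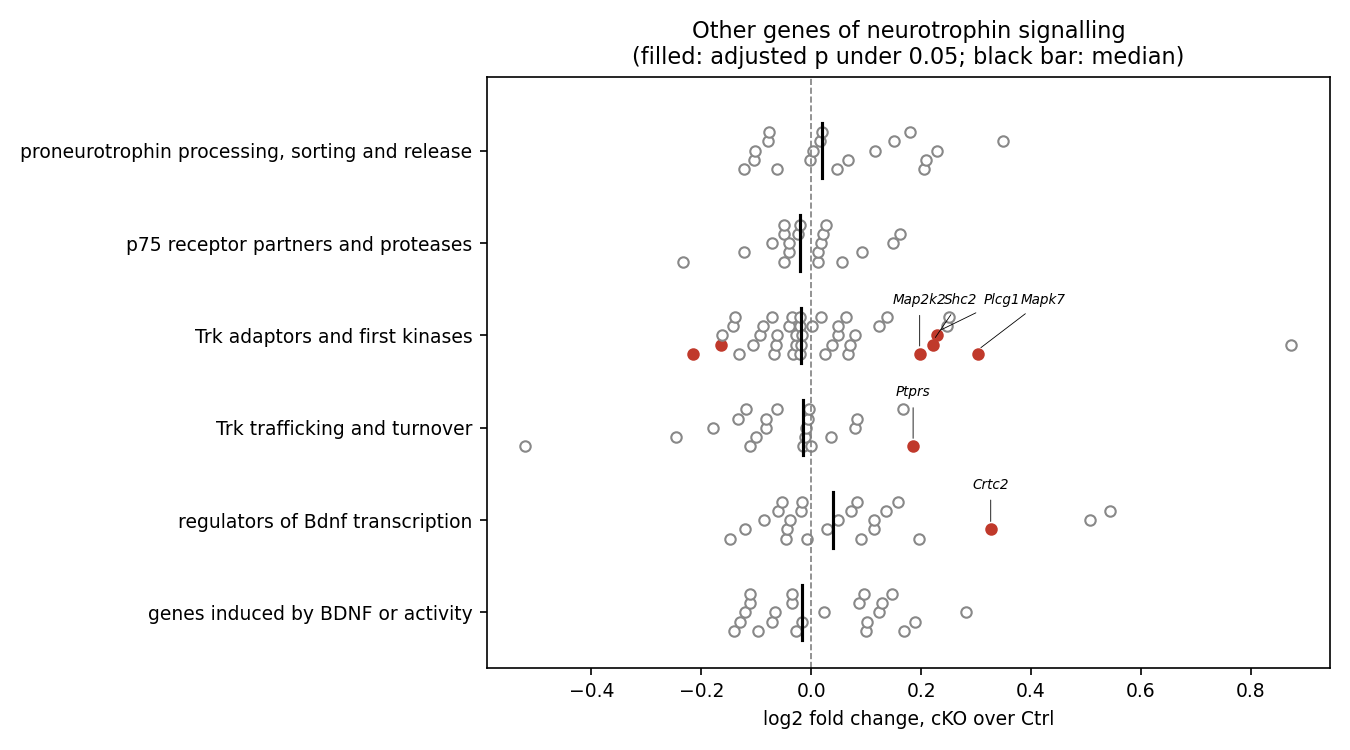
Log2 fold change, cKO over Ctrl, of the tested genes in the 6 lists around the neurotrophin receptors that had more than 1 tested gene, 1 point per gene, with filled points for an adjusted p under 0.05 and a black bar at each list's median. The list medians lie between -0.02 and 0.04, and 6 of the 8 filled points are in the list of Trk adaptors and first kinases.

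Likeness of pattern was measured as Pearson's r of log2 CPM over the 6 libraries, ranking 9701 genes with a mean of at least 10 CPM, and is given as a description. The genes most like Sorcs2 were Cltb (0.992), a clathrin light chain gene, and Rps6ka2 (0.991), a ribosomal S6 kinase gene. Those most like Ntrk3 were Baz2b (0.998) and Cacna2d2 (0.997), and those most like Ntrk2 were Pafah1b1 (0.997) and Mapkap1 (0.99). Bdnf was most like Arl14ep (0.991) and Trappc2 (0.989), Ntf3 like Dpp3 (0.982) and Ppid (0.978), Sort1 like Entpd1 (0.994) and Tmem242 (0.993), and Kidins220 like Vps13d (0.994). With 6 libraries such values are common, since 51 (Ntf3) to 367 (Ntrk3) of the 9701 genes had an r above 0.9, and none of the named genes passed edgeR's test between the groups.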

How the data were processed

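RNA-seq libraries of dentate gyrus (3 cKO, 3 Ctrl) were analysed from the authors' deposited tables. The tools named, per the submitters' processing notes, are featureCounts 1.5.0-p3, HISAT2 2.0.5 and StringTie 1.3.3b. No source used here gives their roles, the annotation release, the strand setting or the read length, and the deposited coordinates are on GRCm38. The authors deposited raw counts per gene and FPKM values, and each FPKM is its count over gene length times 1 constant per library (99.8% to 101% of its total). Samples were grouped by title and columns matched by name. Loci without a gene name (239) took 0.155% to 0.171% of counts and were kept in library sizes, and 192 of them were tested.

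The count test used edgeR 4.0.16 under R 4.3.3 (filterByExpr with minimum count 10 and total 15, TMM, glmQLFit and glmQLFTest, group as the only term, Benjamini-Hochberg adjustment over 16928 genes, threshold 0.05). Standard errors are the log2 fold change over the root of its F statistic. The biological coefficient of variation was 5.67%. A single library resolves about 3 counts, 0.155 to 0.179 CPM, which covers counting error only. Replicates of a group differed by more than sampling noise (chi-square per degree of freedom 2.71 to 4.70), so none was counted as a duplicate.

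Alternatives were DESeq2 1.42.0, limma-voom (limma 3.58.1), upper-quartile or RLE scaling, no or a stricter low-count filter, a replicate block, leaving out each library, limma-trend on log2 FPKM with a pseudocount of 0.1 or 1, and per-library loess offsets (span 0.3) for GC content and gene length, with GC content known for 98.7% of tested genes. Other gene lengths for the order of levels were added after the data were seen. Sequences and transcript lengths came from GENCODE M21 (GRCm38).

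The members and lists were chosen with earlier results of these data known. The genes named are the 8 members, Ythdf2, up to 4 changed genes per list by smallest p (or the 2 of highest FPKM where none changed), the 2 genes most alike in pattern to each tested member (predicted-gene names left out) and genes whose span overlaps a member's, of which those with at most 7 counts are summarised. Some genes that this rule names are not reported here.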

Additional observations from a re-analysis of the deposited data

How the results depend on the processing

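The number of neurotrophin genes that changed was 1 as reported, 2 with DESeq2, 0 by limma-trend on FPKM with a pseudocount of 0.1, 0 with one of 1, 0 after the GC and length correction and 0 to 1 when a library was left out (0 without cKO replicate 1, 2 or 3 or Ctrl replicate 2). The number of pathway genes that changed was 8 as reported, 14 without a low-count filter, 0 and 0 on the 2 FPKM scales, 3 after the GC and length correction, and 1 to 7 when a library was left out, with 1 without cKO replicate 2, 1 without cKO replicate 3, 1 without Ctrl replicate 2 and 4 without the library labelled Ctrl replicate 1. Over all genes 668 changed as reported, 1155 without a low-count filter, 110 by limma-trend on FPKM with a pseudocount of 0.1 and 95 with one of 1, and 211 to 536 when a library was left out (441 without cKO replicate 2, 211 without cKO replicate 3, 358 without Ctrl replicate 2). The causes were not tested.

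The log2 fold changes of all 7 tested neurotrophin genes kept their sign under all 16 alternatives. Sorcs2 lay between 0.15 and 0.29 and lost its call in 7 of them, the limma-trend fits included (adjusted p = 0.142 with either pseudocount). Reversals were -0.017 for Maged1 after the GC and length correction, -0.027 and -0.021 for Npy without cKO replicate 2 or Ctrl replicate 2 (leave-one-out range -0.027 to 0.17), and 0.061 and 0.069 for Ythdf2 without Ctrl replicate 2 or 3 (leave-one-out range -0.30 to 0.069). None of these passed the test except Ythdf2 at -0.30.

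With the replicate number as a block Sorcs2 had a log2 fold change of 0.25 (adjusted p = 0.0356), 1 neurotrophin gene changed and no other call of these 7 genes differed, while among the pathway genes Hap1 passed (adjusted p = 0.0171) and Map2k2 did not (adjusted p = 0.0556). Over all genes the block gave 808 calls, against 668 as reported. Deviations of same-numbered libraries correlated at 0.091, 0.018 and 0.0085 across genes, against -0.054 to 0.037 for libraries of unlike number. Such low values cannot settle whether same-numbered libraries are paired, and the labels give no pairing. Depth limits Ngfr and Ntf5, which had too few counts to be tested.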
